A study of Arabidopsis thaliana with 3 samples.

Results

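COR47, COR15B, LTI30 and KIN2 are cold-regulated and drought-regulated genes of Arabidopsis thaliana, and their transcripts were followed in leaves of plants that overexpress the transcription factor WIN1. The array annotation paired 7 of 8247 probe sets with these 4 genes, and it names 3592 genes through probe sets paired with 1 gene alone. It paired 4383 probe sets with no gene, so a gene without a match here may still be on the array. A probe set is a group of short probes read as 1 intensity. COR47 (AT1G20440) was read by probe sets 13225_s_at and 15997_s_at, COR15B (AT2G42530) by 13785_at, LTI30 (AT3G50970) by 19186_s_at and KIN2 (AT5G15970) by 18699_i_at and 18700_r_at. Probe set 18701_s_at was paired with both KIN2 and its neighbour KIN1 (AT5G15960) and cannot be assigned to either.

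Of the 3 arrays, 1 measured 35S:WIN1 line 13 and 1 measured 35S:WIN1 line 22, each with RNA of leaves pooled over several T2 progeny. The third held RNA from pooled leaves of several plants transformed with an empty binary vector, and it is called the control here. Its title calls it a WT control, while its description gives the empty vector, and the description is followed here. The 35S promoter comes from cauliflower mosaic virus and is active in most tissues, and the lines were treated as separate transgenic lines. No accession, plant age, growth condition or cold, drought or hormone treatment is given in the labels, so all levels are those of leaves in an undescribed state. Each line and the control had 1 array of pooled leaves, so an SD is the spread between the 2 lines, and both ratios use the same control value. Fewer cells of a type and less RNA per cell cannot be told apart in pooled leaves.

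Plants that meet low temperature induce the CBF (DREB1) transcription factors, which bind a short element in the promoters of COR genes. Abscisic acid acts on many of the same promoters through a separate element. WIN1 and the CBF factors belong to the same large AP2/ERF family but to different branches of it. COR47 and LTI30 encode dehydrins, hydrophilic proteins that stay soluble and are known to protect membranes and enzymes as water is lost. COR15B encodes a small protein imported into the chloroplast, where its close relative COR15A is known to stabilise membranes on freezing. KIN2, also called COR6.6, encodes a small hydrophilic protein of the cold and abscisic acid response.

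In the RefSeq gene table of assembly TAIR10.1, each of the 4 genes lies directly beside a gene of the same kind. ERD10, another dehydrin gene, follows COR47, and COR15A follows COR15B. The dehydrin gene XERO1 follows LTI30, and KIN1 precedes KIN2. No probe set was paired with ERD10, COR15A or XERO1 in the table used here, and KIN1 was paired only through the shared probe set 18701_s_at. Probe sets whose names end in _s_at hold probes that can match more than 1 similar transcript, which applies to both COR47 probe sets, to that of LTI30 and to the shared KIN1 and KIN2 probe set. The endings _i_at and _r_at of the KIN2 probe sets mark sets with fewer probes than the standard or with relaxed selection rules. How far a similar transcript contributed to an _s_at value was not tested.

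Deposited median intensities ranged from 35.2 in line 22 to 84.1 in the control, so every array was first brought to 1 trimmed mean. All 7 member probe sets passed the filter on dim probe sets, which kept 5773. All ratios are differences of log2(scaled intensity + 18.6), which understates the change of dim probe sets. Line 22 stood farther from the control than line 13 did, with an SD of the log2 ratios over kept probe sets of 0.936 against 0.401, so the lines are given separately. Of 7 listed leaf markers, 5 genes of photosynthesis (RCA, PRK, SBPASE, PSAE1 and LHCB4.1) were matched by 7 probe sets. Their scaled intensities lay between 522.8 and 4468. Their log2 ratios to the control ran from -0.19 to 0.09 for line 13, and for line 22 they ran from 0.18 to 0.88. The listed markers of root, of flower and seed and of epidermis, guard cell and trichome were not matched to a probe set and were not analysed here. The leaf label could thus not be checked against another tissue. The WIN1 locus AT1G15360 was paired with 0 probe sets, which leaves the overexpression itself unchecked here.

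COR47 was higher than the control in line 13 by both of its probe sets, and the probe sets disagreed in line 22. Probe set 15997_s_at had a scaled intensity of 901.1 in the control, 1616 in line 13 and 1432 in line 22. Both lines lay above the control there, by 1.79 and 1.59 times, with log2 ratios of 0.83 and 0.66, of which the second turned to -0.16 on the deposited values without scaling. Probe set 13225_s_at had 305.1 in the control, 586.8 in line 13 and 114.1 in line 22. Here line 13 lay above the control by 1.92 times and line 22 below it, with log2 ratios of 0.90 and -1.29. The probe sets are annotated to different sequence records of COR47. Their mean log2 ratios were 0.74 ± 0.122 for 15997_s_at and -0.19 ± 1.55 for 13225_s_at (SD, n = 2 lines).

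By the only probe set paired with it, COR15B was higher than the control in line 13 and lower in line 22. Its probe set had a scaled intensity of 1692 in the control, 2419 in line 13 and 1160 in line 22. The control thus lay between the lines, with log2 ratios of 0.51 and -0.54 and a mean of -0.01 ± 0.741 (SD, n = 2 lines). Line 13 exceeded line 22 by 2.08 times, a log2 difference of 1.05, which fell under 2-fold (0.57) after scaling to a common median and was 1.56 without scaling.

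By the only probe set paired with it, LTI30 was slightly above the control in line 13 and below it in line 22. The control had a scaled intensity of 93.7, line 13 had 125 and line 22 had 17.6. The line 22 value lay under the pseudocount of 18.6, so the log2 ratio of -1.63 has a size set largely by that constant. In line 13 the log2 ratio was 0.35, and the mean over the lines was -0.64 ± 1.40 (SD, n = 2 lines).

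KIN2 lay close to the control in both lines by the probe sets that are paired with it alone. Probe set 18699_i_at had a scaled intensity of 1951 in the control, 1843 in line 13 and 1656 in line 22. Probe set 18700_r_at had 1666, 1648 and 1420 in the same order. Both lines lay slightly below the control by either probe set, with log2 ratios of -0.08 and -0.02 in line 13 and both -0.23 in line 22, where they turned to 0.18 and 0.19 after scaling to a common median. The means were -0.16 ± 0.108 and -0.12 ± 0.15 (SD, n = 2 lines).

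The probe set shared by KIN1 and KIN2 differed from these in line 22. It had a scaled intensity of 1683 in the control, 1887 in line 13 and 596.8 in line 22. Line 13 lay near the control with a log2 ratio of 0.16, and line 22 lay at -1.47, with a mean of -0.65 ± 1.15 (SD, n = 2 lines). Its log2 ratio in line 22 lay 1.24 below the mean of the KIN2 probe sets, and in line 13 it lay 0.21 above that mean. The distance of 1.24 is close to the median gap in line 22 between probe sets of 1 gene, which was 1.23 (given below). In line 13 that median was 0.186. No probe set was paired with KIN1 alone, so the KIN1 transcript was not measured separately.

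**Figure D1:**
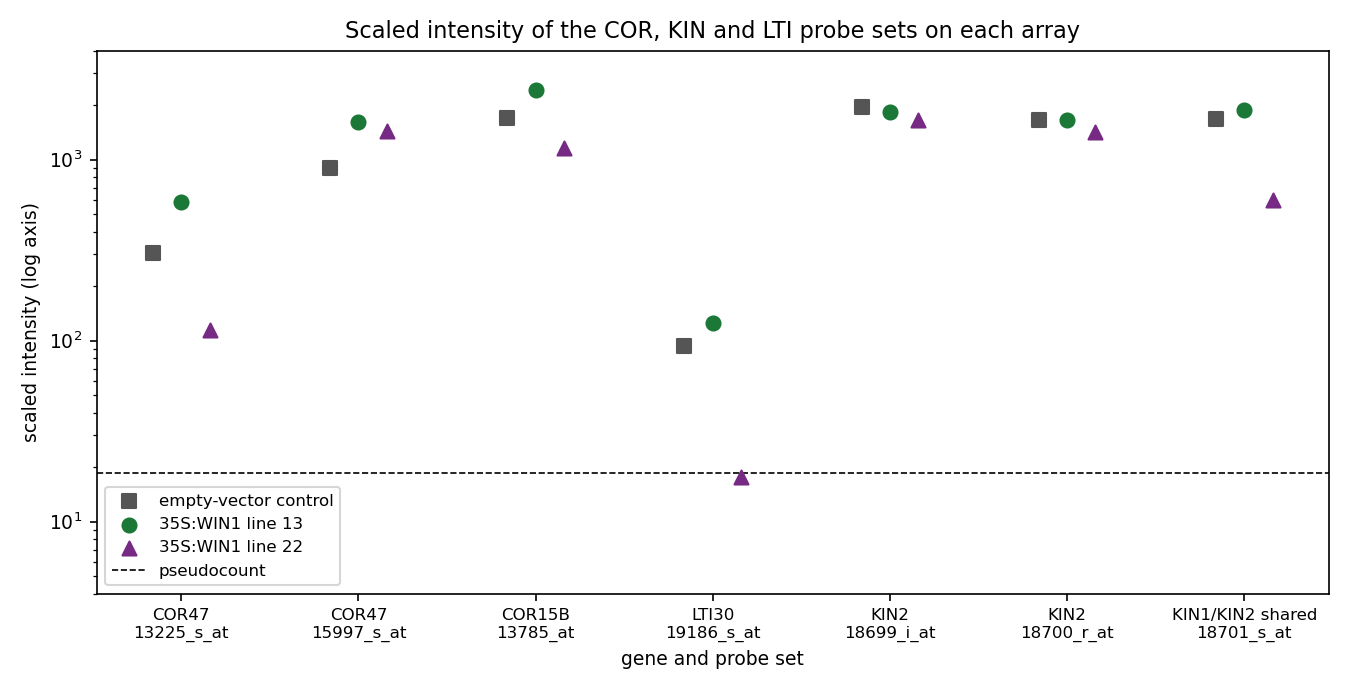
Intensity scaled to 1 trimmed mean (vertical log axis) of each of the 7 probe sets (horizontal axis) on the control array (squares), line 13 (circles) and line 22 (triangles), 1 array each with no error bar, and the pseudocount of 18.6 as a dashed line. Line 13 is the highest array for 13225_s_at, 15997_s_at, COR15B, LTI30 and the shared KIN1 and KIN2 probe set, and line 22 lies below the control in 6 of 7, the exception being 15997_s_at. Of all kept probe sets, 50.9% lay above the control in line 13 and 45.7% in line 22. After scaling to a common median the KIN2 probe sets also lay above the control in line 22 (log2 ratios of 0.18 and 0.19).

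The first comparison asked whether these transcripts changed in WIN1 overexpressors. No member probe set passed the two-sided limma test with Benjamini-Hochberg adjustment over all kept probe sets, in which 0.0346% of kept probe sets (2 of 5773) were called. All 7 had an adjusted p of 0.9999. Without adjustment the limma p ranged from 0.306 for COR47 15997_s_at to 0.986 for COR15B, and 2.23% of kept probe sets had one under 0.05. The limma SE of the 7 mean ratios ranged from 0.719 to 0.768, and the highest mean ratio, 0.74 for 15997_s_at, was about 1 SE. The test had 1 residual degree of freedom, to which limma added the weight of 85.3 degrees of freedom pooled over kept probe sets. Each SE thus reflects mostly that pool and little of the probe set's own spread. The test also assumed that the lone control varies like the lines.

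By size alone, none of the 7 was 2-fold from the control the same way in both lines. The background was 0.866% of kept probe sets higher and 0.554% lower. In line 13 no member reached 2-fold in either direction (background 1.49% higher and 1.25% lower). In line 22, 3 of 7 were at least 2-fold lower, namely 13225_s_at of COR47, LTI30 and the shared KIN1 and KIN2 probe set, against a background of 16.4% lower. None was 2-fold higher in line 22 (background 7.38%). After scaling to a common median, 2 of 7 were 2-fold lower in line 22 (10.3% of kept probe sets), without 13225_s_at at -0.91, and 1 of 7, 15997_s_at, was 2-fold higher (17.4%). Without scaling, 6 of 7 were 2-fold lower (39.7% of kept probe sets), all but 15997_s_at. Over the 7 probe sets the median log2 ratio was 0.35 in line 13 and -0.54 in line 22, beside medians of 0.01 and -0.09 over all kept probe sets.

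The line 13 ratios are set here beside those of all other kept probe sets as a description, since the members were chosen with such ratios known. A log2 ratio at least as high as that of COR47 occurred in 2.04% of kept probe sets for 13225_s_at and in 2.49% for 15997_s_at. For COR15B the share was 6.96% and for LTI30 it was 13.2%. Among probe sets of similar brightness, in the same of 10 equal classes of mean log2 intensity, the corresponding shares were 2.25% and 0.692% for COR47, 3.11% for COR15B and 15.6% for LTI30. In line 13 COR47 and COR15B therefore stood toward the upper end of the array and KIN2 in the middle of it, at 1 array per group.

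In line 22, where all ratios were spread more widely, a ratio at least as low as that of the shared KIN1 and KIN2 probe set occurred in 8.21% of kept probe sets, and for LTI30 and 13225_s_at the shares were 6.58% and 10.6%. Brightness moved with the ratio in line 22. In the brightest of the 10 classes, which holds 5 of the 7 member probe sets, the median ratio was 0.41 on the log2 scale, against -0.26 in the class of LTI30 and -0.07 in that of 13225_s_at. Within the brightest class, 1.73% of probe sets were as low as the shared KIN1 and KIN2 probe set, 11.8% as low as COR15B, and 19.6% and 19.7% as low as the KIN2 probe sets. The part that brightness has in these results was not tested.

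**Figure D2:**
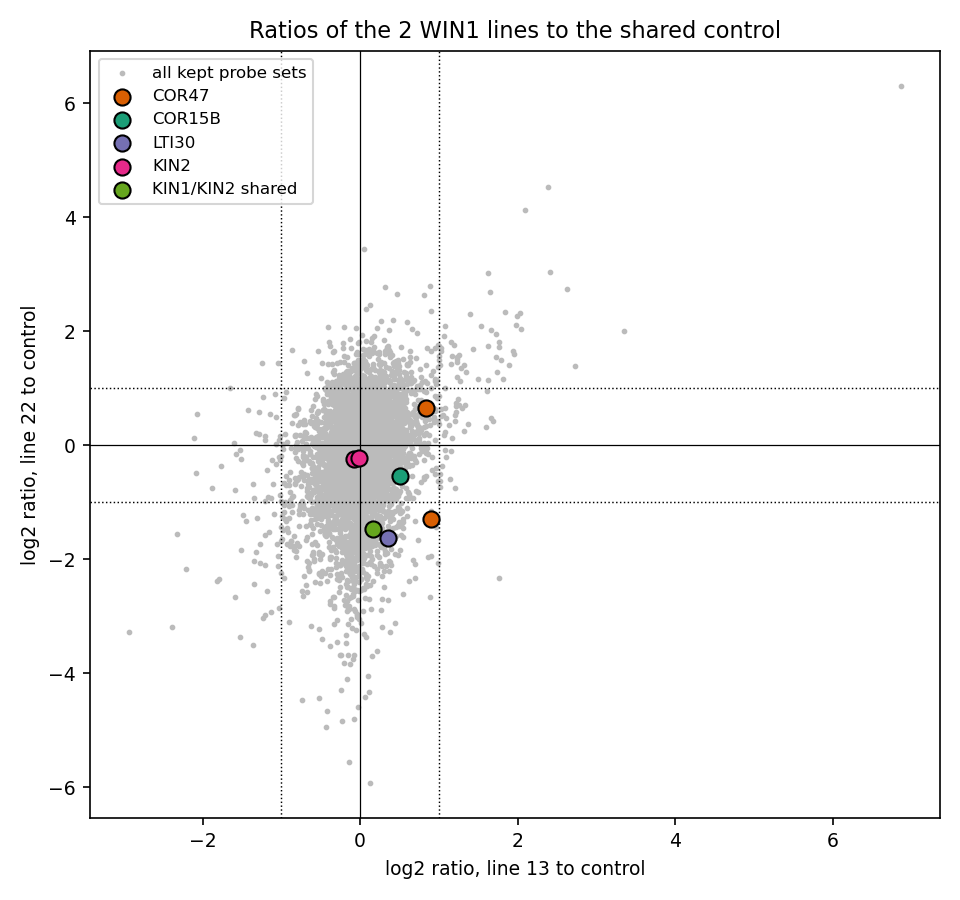
Log2 ratio of line 13 to the control (horizontal) against that of line 22 to the same control (vertical), with all 5773 kept probe sets in grey, the members in colour and dotted lines at 2-fold. The COR47, COR15B and LTI30 points lie right of 0 in line 13, and 3 of the 7 member points lie below the lower 2-fold line in line 22.

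The second comparison was between the lines, which carry the same transgene. Line 13 was at least 2-fold above line 22 in 4 of 7 member probe sets, against 15.3% of kept probe sets, and line 22 was 2-fold above line 13 in none (background 6.6%). After scaling to a common median the count was 3 of 7 (9.25% of kept probe sets), without COR15B. The log2 difference of line 13 minus line 22 was 2.19 for 13225_s_at of COR47, 1.99 for LTI30, 1.63 for the shared KIN1 and KIN2 probe set and 1.05 for COR15B. It was 0.17 for 15997_s_at of COR47 and 0.15 and 0.21 for the KIN2 probe sets. This difference has no replicate check. The ratios had opposite signs in the lines for 4 of 7 member probe sets, beside 42.5% of all kept probe sets.

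Probe sets of 1 gene were compared within each line. Of the genes named by the annotation, 108 had several kept probe sets. The gap between the highest and the lowest log2 ratio within a gene had a median of 0.186 in line 13 and 1.23 in line 22, and it reached 1 in 0.926% and 57.4% of these genes. For COR47 the gap was 0.07 in line 13 and 1.94 in line 22, where it ranked 23 of 108 from the widest. For KIN2, whose probe sets are annotated to the same sequence record, unlike those of COR47, it was 0.07 in line 13 and 0.01 in line 22. A gap as wide as that of COR47 in line 22 was thus not rare on that array, and the sign of its ratio there depends on the probe set read. Of the 108 genes, 45 had probe sets of opposite sign in line 22. COR15B and LTI30 had no further probe set, so their line 22 ratios could not be compared in this way. COR47 was the 1 gene of the 108 whose probe sets were all at least 1.5-fold higher in line 13. Of single kept probe sets, 5.02% were that high. The threshold was chosen after the COR47 values were seen, so that COR47 passed it was fixed beforehand. Both of its probe sets read the same line 13 and control arrays and are not replicates.

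**Figure D3:**
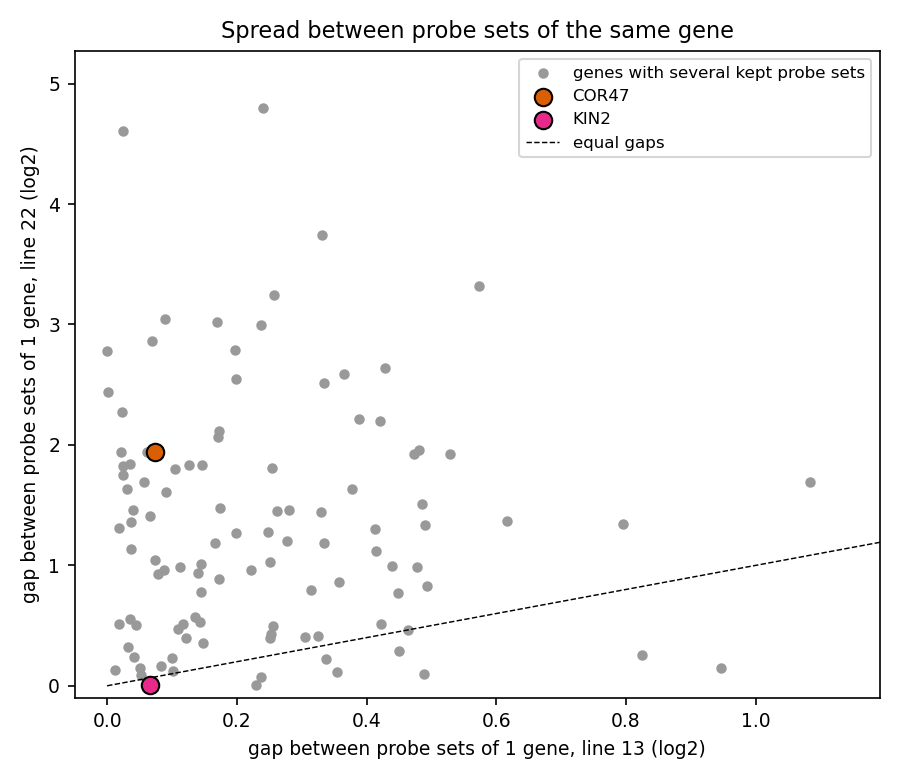
Gap between the highest and lowest log2 ratio to the control among probe sets of 1 gene, in line 13 (horizontal) and line 22 (vertical), for the 108 genes with several kept probe sets, with a dashed line of equal gaps. Most genes lie far above the dashed line, COR47 has gaps of 0.07 and 1.94, and KIN2 has 0.07 and 0.01.

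The kind of probe set also moved with the line 22 ratio. Kept probe sets with the ending _i_at (120) and _r_at (48), the kinds that read KIN2 alone, had medians of 0.41 and 0.70 in the line 22 log2 ratio. Those with _s_at (1075), the kind of COR47, LTI30 and the shared KIN1 and KIN2 probe set, had a median of 0.01 and those with _at (4323), the kind of COR15B, one of -0.13. In line 13 the medians of these 4 kinds lay between -0.10 and 0.01. The part of this difference in the gap between the KIN2 and the shared KIN1 and KIN2 probe sets was not tested.

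The choice of scaling turned the sign of the line 22 ratio for 15997_s_at and both KIN2 probe sets, and in line 13 it turned the ratio of the shared KIN1 and KIN2 probe set to -0.15 without scaling. COR47, COR15B and LTI30 were above the control in line 13 under each of 5 scalings, with log2 ratios from 0.52 to 0.95 for COR47, 0.20 to 0.57 for COR15B and 0.09 to 0.42 for LTI30 over all scalings and pseudocounts. In line 22 the log2 ratio of 15997_s_at of COR47 was -0.16 on the deposited values without scaling and 1.07 after scaling to a common median. The KIN2 probe sets had 0.18 and 0.19 in line 22 with a common median, -1.06 and -1.05 without scaling and -0.67 and -0.62 after cyclic loess. The shared KIN1 and KIN2 probe set stayed between -2.28 and -1.05, LTI30 between -2.33 and -1.01, 13225_s_at between -2.03 and -0.91 and COR15B between -1.36 and -0.12.

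**Figure D4:**
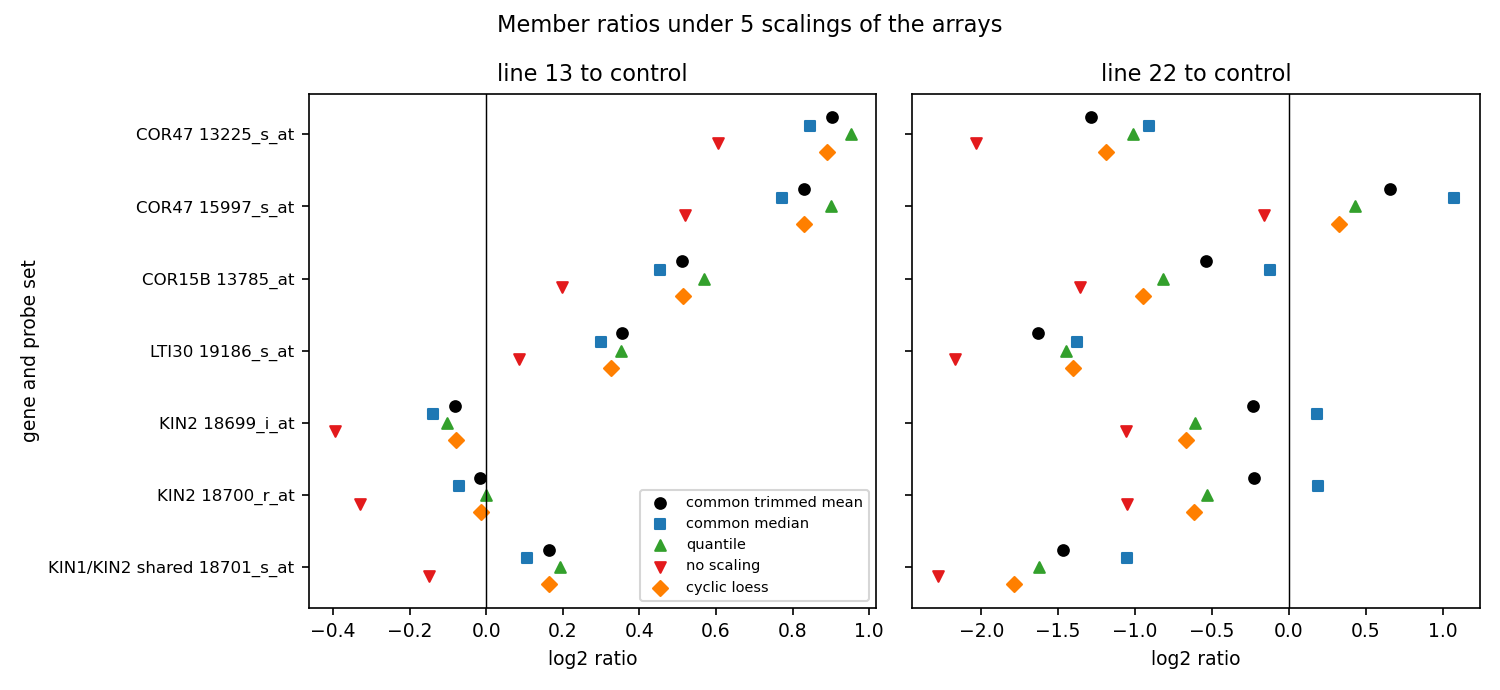
Log2 ratio to the control (horizontal) of each member probe set (vertical) in line 13 (left) and line 22 (right, with its own axis range) under 5 scalings of the arrays. The COR47, COR15B and LTI30 points of line 13 are all right of 0, and in line 22 the points of the KIN2 probe sets and of 15997_s_at lie on both sides of 0.

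Other genes of the cold, drought and abscisic acid response were taken from a list of 73. Of these, 5 genes were matched by 7 probe sets of their own, and 4 genes with 5 probe sets were bright enough to be kept. None of the 5 kept probe sets passed the limma test and none was 2-fold from the control the same way in both lines (same backgrounds as above). In line 22, 2 of the 5 were at least 2-fold higher (background 7.38%), 18558_at of AT2G21490 and 18216_at of ZAT10. None was 2-fold lower (background 16.4%). In the control and line 13 the value of 18558_at lay under the pseudocount, so it passed the filter through line 22. Its place in that count was thus set by the filter. The other ZAT10 probe set, 18217_g_at, had a log2 ratio of -0.16 in line 22. The median log2 ratio of the 5 kept probe sets, with 18558_at among them, was 0.24 in line 13 and 0.68 in line 22. The CBF genes, RD29A, RAB18, COR15A and the abscisic acid signalling genes of the list were not matched and were not analysed here. Since 4383 of the 8247 probe sets were paired with no gene, this does not show that the array lacks them.

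HIRD11 (AT1G54410), a small dehydrin, had a scaled intensity of 1551 in the control, 1905 in line 13 and 2498 in line 22, with log2 ratios of 0.29 and 0.68. After scaling, both lines lay above the control, as for 15997_s_at of COR47. On the deposited values without scaling, both lines lay below the control for HIRD11. AT2G21490, a further dehydrin gene, had 13.3, 14 and 84.6 in the same order by probe set 18558_at, of which the values of the control and line 13 lay under the pseudocount. Its other probe set, 18559_g_at, was dim on all arrays, so the line 22 value of AT2G21490 was not repeated by it.

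HVA22C (AT1G69700), of a family named after an abscisic acid-induced gene of barley, had 80.4 in the control, 69.6 in line 13 and 44.8 in line 22, with log2 ratios of -0.17 and -0.64. ZAT10 (AT1G27730), a zinc finger repressor of stress responses, had log2 ratios of 0.24 and 1.64 by 18216_at and of 0.34 and -0.16 by 18217_g_at, in lines 13 and 22. Its probe sets thus disagreed in line 22, as those of COR47 did. LEA4-5 (AT5G06760), a late embryogenesis abundant protein gene, was below 0 in both lines and at 2.54 in the control, so no level was measured.

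The genes whose pair of log2 ratios lay nearest to that of a member were taken from 2597 kept probe sets of other named genes, by Euclidean distance over the 2 ratios, which share the control. Nearest to 15997_s_at of COR47 were TBL26 (0.80 and 0.63, distance 0.0403), of the trichome birefringence-like family of wall acetylation proteins, and AT2G44370 (0.81 and 0.59, distance 0.07). Nearest to 13225_s_at were AT4G35510 (0.90 and -1.15, distance 0.141) and AT1G67310 (0.69 and -1.32, distance 0.216). Nearest to COR15B were AAH, allantoate amidohydrolase (0.53 and -0.54, distance 0.0177), and AT4G19150 (0.54 and -0.52, distance 0.0354).

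Nearest to LTI30 were AT1G03910, also called CACTIN, at a distance of 0.0722 and AT4G18950 at 0.0731. The KIN2 probe sets had AT4G32160 and AT2G25670 (distances 0.00415 and 0.0172) and AT4G14240 and APM1, aminopeptidase M1 (0.00804 and 0.0205), as their nearest. The shared KIN1 and KIN2 probe set lay nearest to AT2G44530 (distance 0.026) and AT2G40270 (0.0375).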

How the data were processed

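The authors deposited linear intensity values, 1 per probe set and array, with values below 0, and per the labels' protocols the manufacturer's instructions were followed from cRNA labelling to scanning. For the software and summary method, nothing is given in the sources used here. Per the file headers the arrays shared 1 chip lot and 1 scanning session. Each array was scaled to a common mean trimmed by 2% at each end, negative values were raised to 0, 18.6 (the 20th percentile of positive scaled values) was added as a pseudocount, and probe sets above the 30th percentile of mean log2 were kept. limma 3.58.1 in R 4.3.3 (lmFit, eBayes with trend, Benjamini-Hochberg) was fitted to all 5773 kept probe sets. The few arrays limit precision, and p-values measure only the spread between the lines, pooled over probe sets. Members, lists and tests were chosen with earlier results of these data known. Genes named beside the members were the list members by size of mean ratio (up to 6) or of the same families, and the 2 nearest in pattern. Other scalings, pseudocounts, filters and eBayes settings were tried. A ratio or difference of single arrays was counted as moved when it shifted by more than the pooled SD of limma. Symbols came from the platform annotation and RefSeq. No coordinates are given because the files name no genome build.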

Additional observations from a re-analysis of the deposited data

How the results depend on the processing

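Cyclic loess was chosen after seeing the data, and the other alternatives were fixed earlier. No paired analysis was possible because there is 1 control array and the groups share fewer than 2 replicate numbers. No member probe set passed limma under any of 11 alternatives (lowest adjusted p 0.964). With a common median the mean log2 ratio turned to 0.167 for COR15B and to 0.0233 and 0.0595 for the KIN2 probe sets. Leaving out 1 line gave, without a test, -1.29 to 0.903 (COR47 13225_s_at), 0.657 to 0.829 (15997_s_at), -0.537 to 0.511 (COR15B), -1.63 to 0.354 (LTI30), -0.234 to -0.0816 and -0.227 to -0.0152 (KIN2) and -1.47 to 0.164 (KIN1 and KIN2 shared). Without scaling the line 22 ratios moved to -2.03 and -0.162 (COR47), -1.36 (COR15B), -1.06 and -1.05 (KIN2) and -2.28 (KIN1 and KIN2 shared), beside a median over kept probe sets that went from -0.09 to -0.78. For LTI30 a pseudocount at the 40th percentile gave -1.01 in line 22 and a difference between the lines of 1.29, and a floor gave -2.33 and 2.75, by the construction of these settings.

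Of all kept probe sets, 2 passed adjusted p, and this count was 1 with a common median, a pseudocount at the 5th percentile, eBayes without trend, robust eBayes and cyclic loess, 4 with a pseudocount at the 40th percentile, and 0 with quantile normalization, a floor and no filter. At an unadjusted p under 0.05 limma gave 60, 43 and 307 there. The 82 that were 2-fold from the control in both lines became 129 without scaling, 147 with the low pseudocount (5th percentile), 39 with the high one (40th percentile), 146 with a floor, 47 with the stricter filter (50th percentile), 275 and 26 for thresholds of 1.5-fold and 3-fold, and 158 to 1372 in 1 line alone. The 1262 that were 2-fold apart between the lines became 2691 and 451 for those thresholds and 752 with the high pseudocount. The count of other listed genes stayed at 0 under the settings tried. Other causes were not tested.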

Other observations

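A further set of genes was gathered after the lists had been fixed, by the words late embryogenesis, dehydrin, drought or cold in the RefSeq symbols and synonyms, without regard to their values. It held 7 genes with 8 probe sets outside the members and the list, of which 5 probe sets were kept. SRC2 (AT1G09070) is named after a cold-regulated gene of soybean. Its scaled intensity was 608 in the control, 816.2 in line 13 and 457.9 in line 22. The log2 ratios were 0.41 and -0.40, so that the control lay between the lines as for COR15B. Ratios of opposite sign in the lines occurred in 42.5% of all kept probe sets. DI19 (AT1G56280), named for its induction by drought, lay near the control in both lines, with 1114 in the control, 1190 and 1203. AT2G44060, also called LEA26, lay above the control in both lines after scaling, with log2 ratios of 0.15 and 0.54. On the deposited values without scaling, both lines lay below the control for DI19 and for AT2G44060.

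AT2G46140, also called LEA27, had 41.7 in line 13, a value below 0 in line 22 and 21.2 in the control. DI21 (AT4G15910) had log2 ratios of -0.34 and 0.15 by its kept probe set 16943_s_at. The remaining probe sets, of AtLEA4-1, LEA18 and a further one of DI21, were dim. None of the 5 kept probe sets passed the two-sided limma test (adjusted p of 0.9999 for each), and these genes are given as values only.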
